A study of Mus musculus with 9 samples.

Results

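The genes examined were the 3 TGF-beta ligands (Tgfb1, Tgfb2, Tgfb3), the 3 receptors that bind them (Tgfbr1, Tgfbr2, Tgfbr3) and the 4 latent TGF-beta binding proteins (Ltbp1, Ltbp2, Ltbp3, Ltbp4). They were taken by symbol from the deposited expression table, which held all 10 among its 30579 genes. RNA had been sequenced from mesenchymal stromal cells sorted from mouse long bones, in 3 groups of 3 libraries: control mice aged 3 months (young control), control mice aged 18 months (aged control) and Thbs1 knockout mice aged 18 months. In every group VE-cadherin, which marks endothelial cells, was labelled by an injected antibody 10 minutes before death, and 2 ng of RNA from the sorted cells went into SMART-Seq v4 libraries. The sources used here do not give the strain, the sex, the kind of Thbs1 allele, the sort gates or whether animals were pooled. P-values therefore measure the spread between these libraries, which may be partly technical.

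TGF-beta ligands are secreted in a latent form, folded inside their own propeptide. A latent TGF-beta binding protein can join that complex and fasten it to the extracellular matrix, until an integrin, a protease or thrombospondin-1, the product of Thbs1, releases the ligand. Free ligand binds the type II receptor Tgfbr2, which activates the type I receptor Tgfbr1. The co-receptor betaglycan, encoded by Tgfbr3, presents ligand to this pair and is best known for its hold on the Tgfb2 product, which binds the type II receptor poorly by itself. In bone marrow the pathway is known for restraint of blood stem cell division and for matrix production and lineage choice in stroma.

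The values are FPKM, fragments per kilobase of transcript scaled to the library's total, so levels can be set beside each other between genes. Thbs1 itself lay at 24.28, 44.55 and 37.05 FPKM in the 3 libraries labelled aged Thbs1 knockout and at 35.56, 41.89 and 36.85 FPKM in the aged controls. Its RNA level does not separate the 2 groups and so does not check the label (the log2 difference was -0.15, adjusted p = 0.801), and the third group is called here by its label (the libraries labelled knockout). Low values gave an estimated depth of 17.8 to 27.6 M reads (M, mega) per library. Defining stromal markers were present throughout, with Cxcl12 at 2873.19 to 6044.06 FPKM and Lepr at 233.23 to 672.93 FPKM, while the 8 endothelial markers summed to 2.43 to 13.35 FPKM. Immunoglobulin genes took 21.6%, 4.27% and 31.9% of the estimated reads in the aged controls, 0.162%, 19.2% and 2.36% in the libraries labelled knockout, and at most 0.170% in the young controls. Replicate 2 of the libraries labelled knockout stood apart from the other 8, with correlations across genes of 0.738 to 0.811 and the fewest genes above 0 (13503, against 16557 to 18382). Some of the results below are given without it as well, and the others include it.

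All 10 genes passed the filter of at least 1 FPKM in at least 3 libraries, which 11988 genes passed. Betaglycan was the most abundant of the 10 in every group, at 102 ± 18.1 FPKM in young controls (SD, n = 3 here and throughout), and its mean over the 9 libraries lay at percentile 95.04 of the tested genes. Ltbp2 followed in each group. Its range overlapped that of Tgfbr3 in the libraries labelled knockout and lay below it in both control groups. Tgfb3, Ltbp1 and Ltbp3 came next, and the ranges of neighbours among these 3 overlapped in each group. Tgfbr2, Tgfb1 and Tgfbr1 were lower. The bottom place went to Ltbp4 in young controls (1.26 ± 0.348 FPKM) and in the libraries labelled knockout, and to Tgfb2 in aged controls (1.59 ± 0.577 FPKM). Ltbp4 overlapped its upper neighbour Tgfb2 in the libraries labelled knockout, while Tgfb2 lay wholly below Ltbp4 in aged controls.

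**Figure D1:**
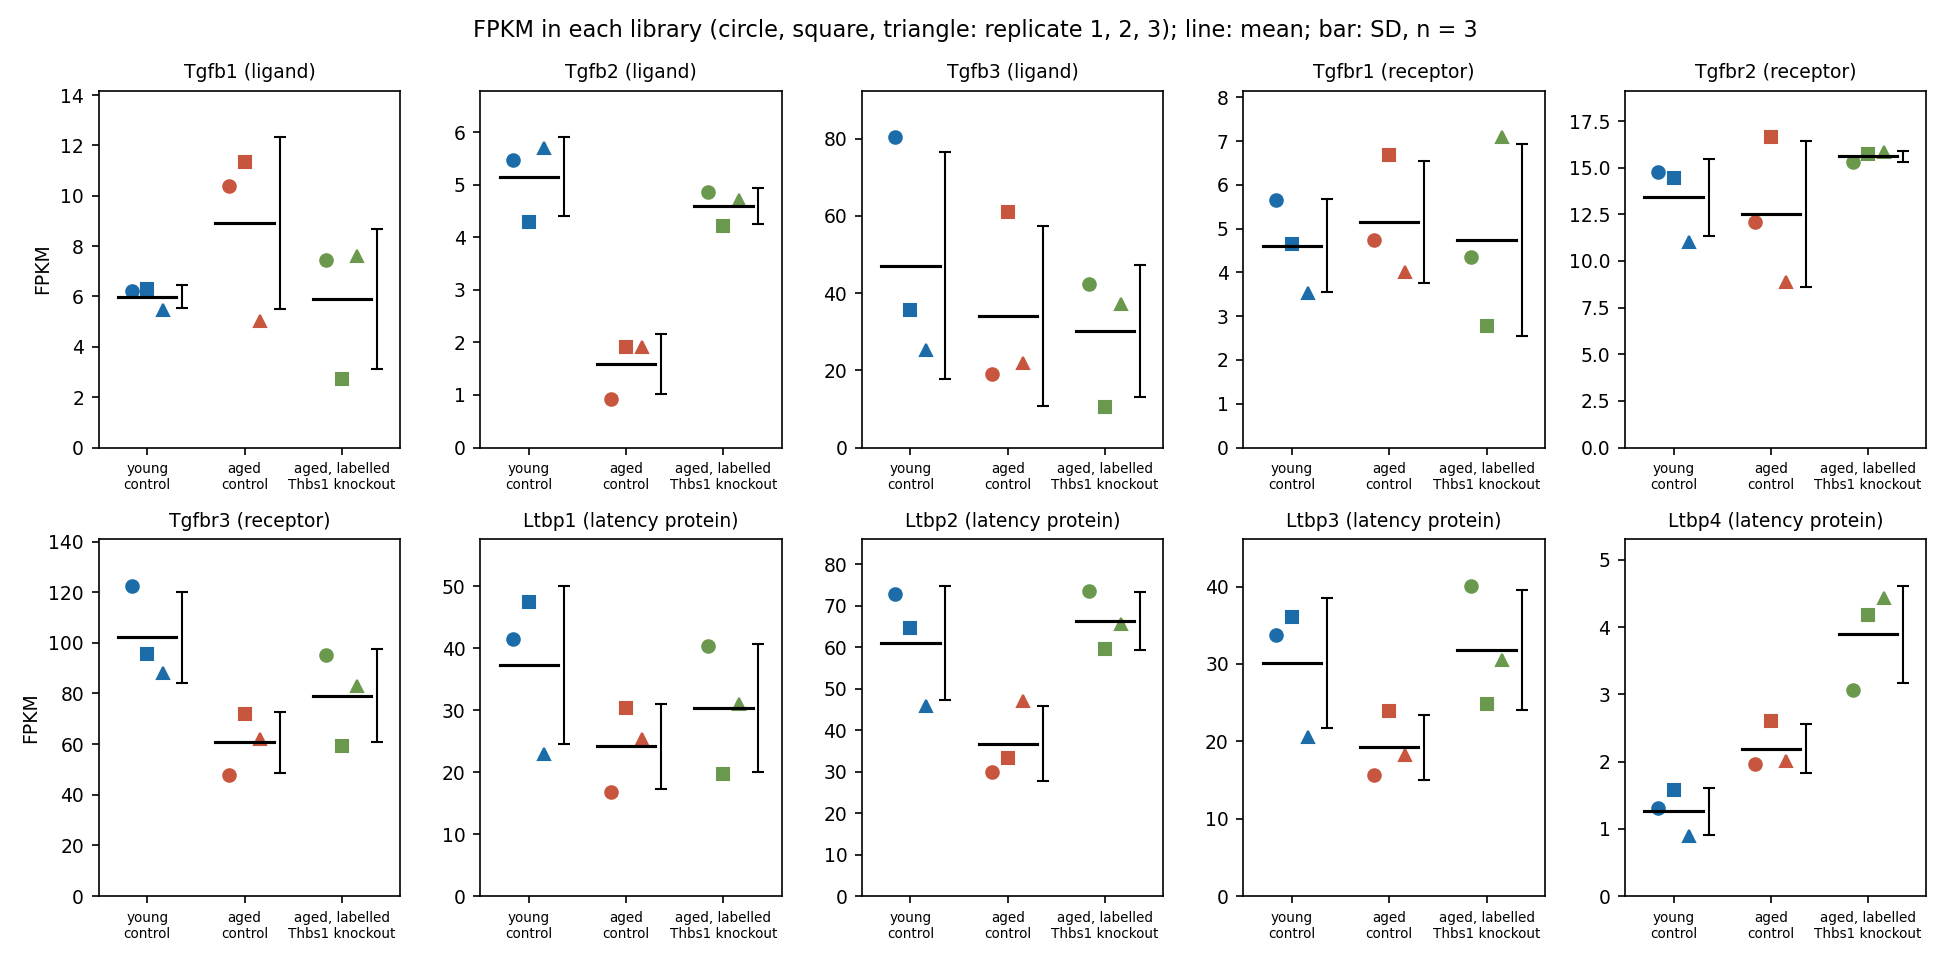
FPKM (y axis, linear, from 0) of each of the 10 genes in each library, by group (x axis), with the group mean as a line and the SD as a bar (n = 3). Tgfb2 in the 3 aged controls lies at 0.92 to 1.92 FPKM, below all 6 other libraries (4.21 to 5.70 FPKM), and Ltbp4 steps up from group to group without overlap.

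Among the ligand genes, Tgfb2 was the only one of the 10 genes to pass the test in any comparison: it fell in aged against young controls and was higher in the libraries labelled knockout than in aged controls. To set the gene that moved beside a ligand gene that did not pass, the upstream sequences of Tgfb2 and Tgfb1 are shown here, as the 250 bases before the annotated start, 5′ to 3′ on the gene's strand, from RefSeq on GRCm38.p6. That table held 8 of the 10 genes; Tgfb3 and Tgfbr3 were not matched. Capitals mark the TATA box TATAAA, the E-box CACGTG and the GC box GGGCGG or its reverse complement CCGCCC. Tgfb2 lies on chromosome 1 (186622792 to 186705989, minus strand) and Tgfb1 on chromosome 7 (25687002 to 25705077, plus strand), in the GENCODE M21 models of GRCm38, so both windows fall outside their genes.
Tgfb2 (chr1:186705990-186706239, minus strand): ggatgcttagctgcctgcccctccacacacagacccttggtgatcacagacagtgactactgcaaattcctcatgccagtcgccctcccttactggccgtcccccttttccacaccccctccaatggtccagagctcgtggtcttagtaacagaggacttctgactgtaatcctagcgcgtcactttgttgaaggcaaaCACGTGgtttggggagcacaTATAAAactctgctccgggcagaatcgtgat
Tgfb1 (chr7:25686752-25687001, plus strand): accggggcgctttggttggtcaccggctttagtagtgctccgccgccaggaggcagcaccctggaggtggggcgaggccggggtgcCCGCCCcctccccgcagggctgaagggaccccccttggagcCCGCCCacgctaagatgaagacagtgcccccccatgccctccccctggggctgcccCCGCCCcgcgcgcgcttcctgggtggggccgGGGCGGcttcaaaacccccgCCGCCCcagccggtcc

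The Tgfb2 window holds a TATA box starting 31 bases before the start site and an E-box 51 bases before it, and no GC box. Its GC content is 53.6%. The Tgfb1 window holds 5 GC boxes and neither of the other motifs, with a GC content of 75.2%. Searched on both strands of the 250-base windows of 32851 mouse promoters, where the median GC content was 52.4%, TATAAA was found in 12.4%, CACGTG in 6.02% and GGGCGG in 32.7%. The motifs do not overlap each other in the Tgfb2 window. These matches describe letters in a window, and binding there was not measured.

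Tgfb2 encodes the ligand that depends most on betaglycan. It was at 5.46, 4.29 and 5.70 FPKM in the young controls, at 0.92, 1.92 and 1.92 FPKM in aged controls, and at 4.86, 4.21 and 4.71 FPKM in the libraries labelled knockout. Every aged control lay below every other library, and the libraries labelled knockout lay within the young range or just under it. On the log2(FPKM + 1) scale, which understates the change of low genes, Tgfb2 fell by 1.27 in aged against young controls (SE 0.24, 95% interval -1.80 to -0.74, adjusted p = 0.0254 by limma). It was higher by 1.14 in the libraries labelled knockout than in aged controls (SE 0.24, interval 0.61 to 1.67, adjusted p = 0.0355). Between the libraries labelled knockout and young controls the log2 difference was -0.13 (interval -0.66 to 0.40, adjusted p = 0.853). An estimated 138 to 735 reads stood behind each of these Tgfb2 levels.

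Neither call was firm. Leaving out young control replicate 1, 2 or 3 or aged control replicate 1 raised the adjusted p of the fall to 0.119, 0.0893, 0.112 and 0.177. The rise lost its call in 7 of the 9 fits that left out a library, all but those without aged control replicate 3 (adjusted p = 0.0486) and without knockout-labelled replicate 2 (adjusted p = 0.0141). Over 17 alternatives the log2 difference stayed between -1.70 and -0.999 for the fall and between 0.94 and 1.54 for the rise. With the immunoglobulin genes taken out of the FPKM total, the fall was 1.04 on the log2 scale (adjusted p = 0.0524) and the rise 0.99 (adjusted p = 0.0562). A bulk level cannot tell fewer cells of a type from less RNA per cell.

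Tgfb1, the ligand most associated with leukocytes and platelets, followed another order. Its levels were 6.23, 6.28 and 5.47 FPKM in the young controls, 10.40, 11.34 and 5.02 FPKM in aged controls, and 7.43, 2.71 and 7.59 FPKM in the libraries labelled knockout. Aged control replicates 1 and 2 were the highest of the 9 libraries, while replicate 3 was below every young control. The log2 difference was 0.44 (SE 0.38, adjusted p = 0.543) between aged and young controls and -0.55 (SE 0.38, adjusted p = 0.466) between the libraries labelled knockout and aged controls. Neither passed. With median-ratio rescaling the first was 0.76 (adjusted p = 0.246). The 9 pan-leukocyte markers summed to 1513.8, 2089.5 and 215.42 FPKM in aged controls 1 to 3, the same order as Tgfb1. They summed to 52.41, 58.55 and 117.85 FPKM in young controls and to 39.36, 210.41 and 58.96 FPKM in the libraries labelled knockout. In those groups the library with the highest sum had the lowest Tgfb1. No pan-leukocyte marker was at 0 in all libraries of a group. Of the 8 such markers tested, 7 rose in the first comparison and 7 fell in the second. Over all tested genes 4.04% and 3.48% passed in these comparisons. Lcp1, Laptm5, Spi1 and Cd37 met the filter only through the aged controls, so their calls are a description. The part of the pan-leukocyte markers in the Tgfb1 level was not tested.

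Tgfb3 supplied most of the ligand transcript. It made up 60.48% to 87.31% of the summed FPKM of the 3 ligands in the 9 libraries. Its own level varied widely within each group, at 80.41, 35.70 and 25.15 FPKM in the young controls, 19.10, 60.88 and 21.97 FPKM in aged controls, and 42.44, 10.59 and 37.23 FPKM in the libraries labelled knockout. The 3 ranges overlapped. The log2 difference was -0.48 (SE 0.64, adjusted p = 0.693) between aged and young controls and -0.19 (SE 0.64, adjusted p = 0.902) between the libraries labelled knockout and aged controls, with the largest standard error of the 10 genes. A change of either direction was not detectable at this spread.

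The balance of the 2 less abundant ligands was compared inside each library, where the scaling cancels but any difference in the mix of cells does not. The ratio of Tgfb2 to Tgfb1 was 0.876, 0.683 and 1.04 in young controls, 0.0885, 0.169 and 0.383 in aged controls, against 0.654, 1.55 and 0.621 in the libraries labelled knockout. All aged controls lay below all 6 other libraries. For each of the 2 comparisons with aged controls the exact two-sided permutation test gave p = 0.1, the smallest that 3 against 3 allow. In all, 22 shares, sums and ratios were tested in 3 comparisons, and the Benjamini-Hochberg adjusted value of every p at 0.1 was 0.33, so none of them could pass and they stand as descriptions.

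**Figure D2:**
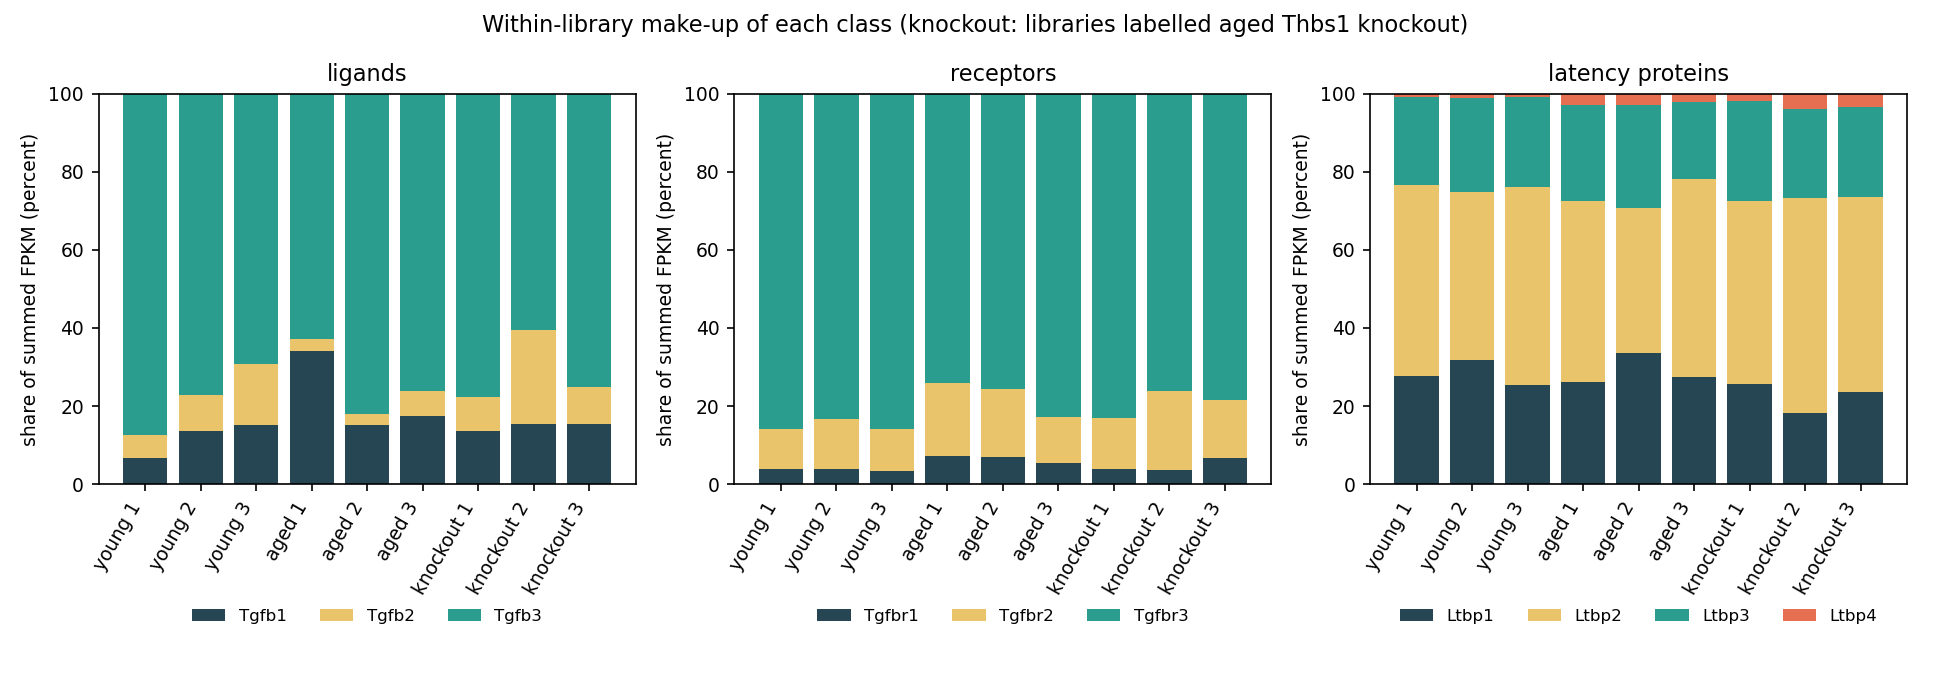
Share of the summed FPKM of each class (y axis, percent, from 0) taken by each of its genes in each library (x axis). Tgfb3 fills 60.48% to 87.31% of the ligand bars, Tgfbr3 the greater part of every receptor bar, and Ltbp4 a thin band that is thinnest in the 3 young controls.

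No receptor gene passed in any comparison. Betaglycan had the clearest separation: Tgfbr3 was at 122.62, 95.69 and 88.28 FPKM in the young controls, 47.80, 72.00 and 62.14 FPKM in aged controls, and 95.28, 59.16 and 83.11 FPKM in the libraries labelled knockout. All aged controls lay below all young controls, and the libraries labelled knockout overlapped both. The log2 difference was -0.75 (SE 0.26, adjusted p = 0.143) between aged and young controls and 0.37 (adjusted p = 0.478) between the libraries labelled knockout and aged controls. Fitted without knockout-labelled replicate 2, whose spread enters the shared error, the first of these passed (adjusted p = 0.0347). In that fit 2729 of all tested genes passed in this comparison, against 484 with every library kept. The Tgfbr3 difference shrank to -0.38 with median-ratio rescaling (adjusted p = 0.454, or 0.238 with that library left out as well). It was -0.44 without the immunoglobulin genes (adjusted p = 0.533).

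The signalling receptors had smaller differences than betaglycan between aged and young controls. Tgfbr2, the type II receptor, was at 14.75, 14.46 and 11.04 FPKM in the young controls, 12.07, 16.64 and 8.87 FPKM in aged controls, and 15.29, 15.72 and 15.83 FPKM in the libraries labelled knockout. The last 3 values had an SD of 0.285 FPKM although replicate 2 of that group stood apart over all genes, and they lay above every young control. That closeness holds for the deposited scaling. The median-ratio factors, by which values are divided, were 1.11, 0.812 and 1.10 for these libraries, so rescaling raises replicate 2 against replicates 1 and 3. The log2 difference of Tgfbr2 was -0.12 (adjusted p = 0.811) between aged and young controls, 0.34 (adjusted p = 0.494) between the libraries labelled knockout and aged controls, and 0.21 (adjusted p = 0.770) between the libraries labelled knockout and young controls. The sign of the first turned to 0.22 when libraries were rescaled by the median ratio of their genes. Tgfbr1, the type I receptor, ranged from 2.77 to 7.09 FPKM over all libraries, with group means of 4.61 ± 1.06, 5.15 ± 1.38 and 4.74 ± 2.18 FPKM in the young controls, aged controls and the libraries labelled knockout. Its ranges overlapped in every comparison, with log2 differences of 0.13, -0.15 and -0.02.

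Within the receptor class, betaglycan held a smaller share in both aged groups. Its share of the summed receptor FPKM was 85.0% ± 1.40 in young controls, 77.4% ± 4.73 in aged controls and 79.2% ± 3.42 in the libraries labelled knockout. Every library of the latter groups lay below every young control (exact permutation p = 0.1 for each, adjusted value 0.33). The Tgfbr1 share was 3.81% ± 0.329 in young controls and 6.57% ± 1.08 in aged controls, again with no overlap (exact permutation p = 0.1, adjusted value 0.33).

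The latency proteins were lowest in aged controls for 3 of the 4 genes, and none passed in any comparison. Ltbp2, which binds matrix fibrils but is known not to bind latent TGF-beta itself, was at 72.71, 64.56 and 45.76 FPKM in the young controls, 29.79, 33.39 and 47.03 FPKM in aged controls, and 73.53, 59.61 and 65.58 FPKM in the libraries labelled knockout. The libraries labelled knockout lay above all aged controls, while aged control replicate 3 reached into the young range. The log2 difference was -0.72 (SE 0.26, adjusted p = 0.149) between aged and young controls and 0.85 (SE 0.26, adjusted p = 0.112) between the libraries labelled knockout and aged controls. The latter passed without knockout-labelled replicate 2 (0.93, adjusted p = 0.0429) but not when rescaling was added (0.60, adjusted p = 0.219). Without that library 1365 of all tested genes passed as higher and 530 as lower, against 182 and 235 with every library kept. The difference between aged and young controls shrank to -0.35 with median-ratio rescaling (adjusted p = 0.639) and to -0.41 without the immunoglobulin genes (adjusted p = 0.669). Ltbp2 shares 9.34% of its exon length with the opposite-strand gene D030025P21Rik, itself at 1.24 to 7.94 FPKM. The sources used here do not say whether the counting used strand, so reads in the shared bases cannot be assigned.

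Ltbp1 and Ltbp3 both bind the latent complex. Ltbp3 was at 33.71, 36.10 and 20.58 FPKM in the young controls, 15.65, 23.87 and 18.24 FPKM in aged controls, and 40.13, 24.78 and 30.47 FPKM in the libraries labelled knockout. The libraries labelled knockout lay above all aged controls, by a log2 difference of 0.69 (SE 0.29, adjusted p = 0.230). Aged controls differed from young controls by -0.60 (SE 0.29, adjusted p = 0.269), with overlap. Ltbp1 was at 41.49, 47.44 and 22.92 FPKM in the young controls, 16.80, 30.36 and 25.39 FPKM in aged controls, and 40.25, 19.65 and 30.99 FPKM in the libraries labelled knockout. Its ranges overlapped in all comparisons, with log2 differences of -0.58, 0.30 and -0.28. Median-ratio rescaling brought the difference between aged and young controls to -0.24 for Ltbp3 and -0.22 for Ltbp1. The ratio of Ltbp3 to Ltbp1 was 0.997, 1.26 and 0.983 in the libraries labelled knockout (1.08 ± 0.157), with replicate 2 the highest. Each was above every library of both control groups (exact permutation p = 0.1, adjusted value 0.33).

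Ltbp4, the scarcest latency protein and the one that binds the Tgfb1 product only, was lowest in young controls. It was at 1.31, 1.58 and 0.89 FPKM in the young controls, 1.96, 2.61 and 2.01 FPKM in aged controls, and 3.07, 4.18 and 4.43 FPKM in the libraries labelled knockout. No pair of groups overlapped: every aged control was above every young control, and every library labelled knockout was above every aged control. The log2 difference was 0.50 (SE 0.22, adjusted p = 0.231) for the first step, 0.61 (SE 0.22, adjusted p = 0.175) for the second and 1.12 (SE 0.22, 95% interval 0.61 to 1.62, adjusted p = 0.278) for the libraries labelled knockout against young controls. None of these passed. The third has an unadjusted p of 7e-04 by limma and stood in a comparison where 3 of 11988 genes passed. The first passed, at 0.74 (adjusted p = 0.0342), only with median-ratio rescaling and without knockout-labelled replicate 2. Its share of the summed latency protein FPKM was 0.974% ± 0.0896 in young controls, 2.71% ± 0.471 in aged controls and 3.06% ± 0.990 in the libraries labelled knockout, and both aged groups lay wholly above the young one. The estimated reads behind Ltbp4 numbered 113 to 616 per library.

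Read against all tested genes, the counts of members were small. In aged against young controls 1 of the 10 genes passed, against 4.04% of all tested genes (1.47% lower), and 3 of 10 had an unadjusted p under 0.05, against 21.7%. The groups did not overlap for 3 of the 10, Tgfb2 and Tgfbr3 below and Ltbp4 above, against 44.4% of all tested genes (37.4% lower, 7.02% higher), so the share of non-overlapping genes among the 10 was no higher than the background. In the libraries labelled knockout against aged controls 1 of 10 passed, against 3.48% (1.52% higher), and 4 of 10 had an unadjusted p under 0.05, against 19.8%. The groups did not overlap for 4 of 10 (23.1% of all tested genes), and all 4 lay above, Tgfb2, Ltbp2, Ltbp3 and Ltbp4 (16.6%). In the libraries labelled knockout against young controls 0 of 10 passed by limma, against 0.025%, with 1 of 10 at an unadjusted p under 0.05 against 8.63%. The groups did not overlap for 2 of 10 (17.5% of all tested genes), Tgfbr2 and Ltbp4, both above (4.08%). The median log2 difference of the 10 was -0.53, 0.35 and -0.07 in the 3 comparisons, beside -0.28, 0.07 and -0.16 over all tested genes. With median-ratio rescaling the medians over all genes became 0.02, -0.08 and -0.01. The passing genes of the first comparison numbered 308 higher and 176 lower as deposited and 355 and 58 when rescaled, and those of the second 182 and 235 against 149 and 357. The first 2 comparisons share the aged controls, so their opposite signs are not independent.

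**Figure D3:**
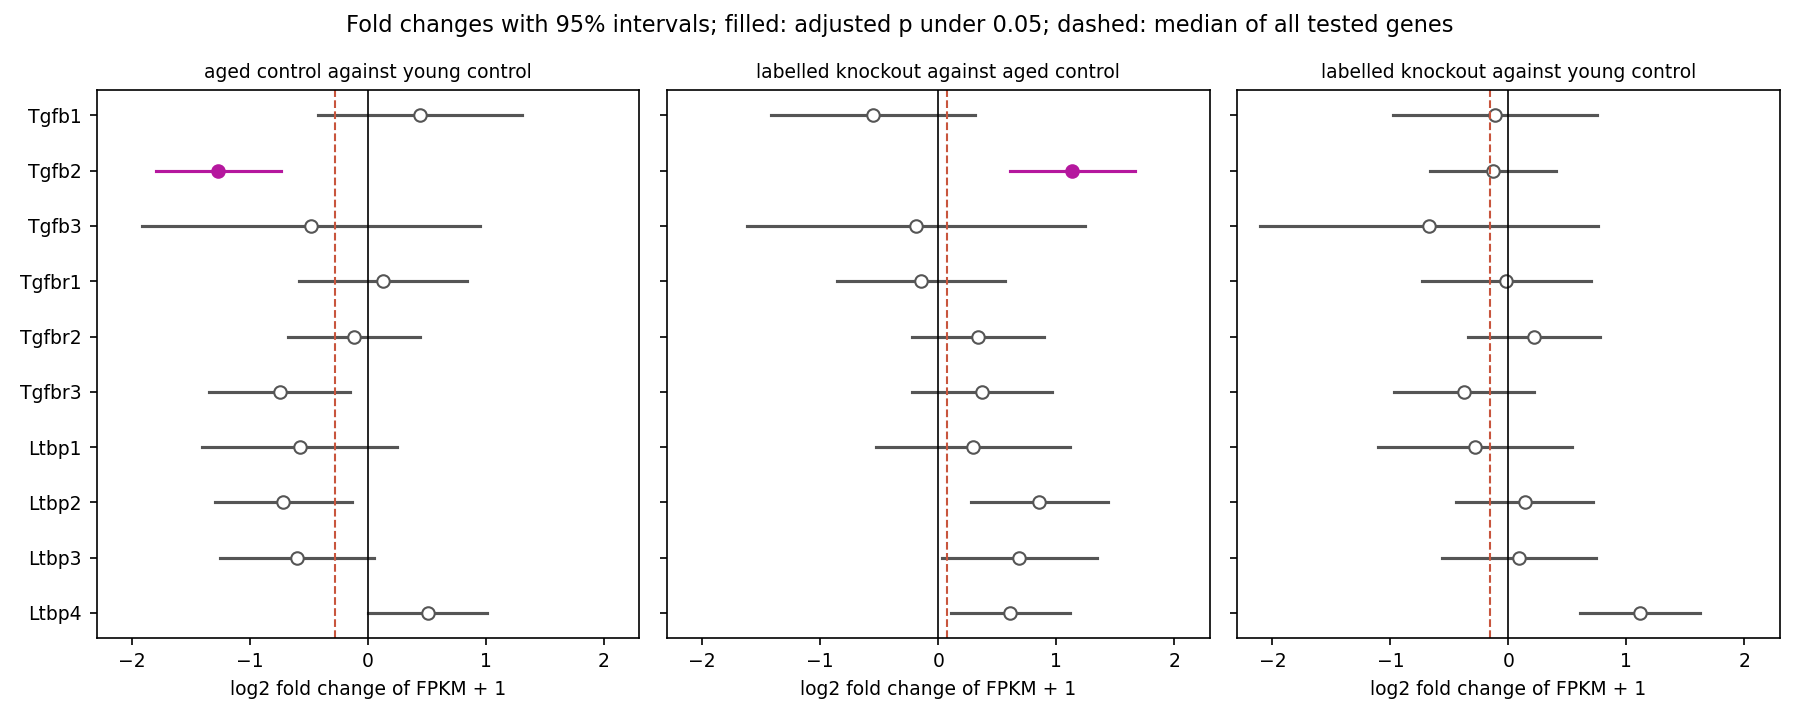
Log2 fold change of FPKM + 1 (x axis) of the 10 genes in the 3 comparisons, with 95% intervals. Filled points have an adjusted p under 0.05, and the dashed line is the median of all 11988 tested genes (-0.28, 0.07 and -0.16). Tgfb2 alone is filled, at -1.27 and at 1.14.

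Of 64 other genes of the pathway, 62 were tested. In aged against young controls 1 rose and 5 fell, and in the libraries labelled knockout against aged controls 8 rose and 1 fell. Between the libraries labelled knockout and young controls 0 passed by limma. Over all tested genes the shares passing were 4.04%, 3.48% and 0.025% in the same order. By limma 22, 24 and 7 of the 62 had an unadjusted p under 0.05, against 21.7%, 19.8% and 8.63% of all tested genes. Nrros, described next, is the 1 gene higher in the first comparison and the 1 lower in the second. The median log2 difference of the 62 was -0.48, 0.42 and -0.03. Leaving out any young control or aged control replicate 1 brought the count of the first comparison from 6 to 0. Leaving out aged control replicate 1 brought that of the second from 9 to 0. Over all genes tested in those fits, 31, 36, 17 and 4 passed in the first comparison. In the second 7 passed as higher and 6 as lower. Without knockout-labelled replicate 2 the pathway counts were 25 and 21. Over all genes tested there, 611 passed as higher and 2118 as lower in the first comparison, and 1365 and 530 in the second. With median-ratio rescaling the pathway counts were 1 higher and 3 lower, and 7 higher and 1 lower.

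Among the 18 activators and anchors of the latent complex, of which 16 were tested, Nrros alone passed, and it entered the test only because the 3 aged controls were above 1 FPKM. It had to differ between groups to be tested, so its values are a description. Nrros anchors the latent Tgfb1 product on the surface of myeloid cells and microglia. It was at 0.40, 0.53 and 0.31 FPKM in the young controls, 5.90, 9.48 and 2.23 FPKM in aged controls, and 0.44, 0.24 and 0.58 FPKM in the libraries labelled knockout. The log2 difference was 2.13 between aged and young controls and -2.12 between the libraries labelled knockout and aged controls. Its order over aged controls 1 to 3 was that of the summed pan-leukocyte markers, while in the libraries labelled knockout its lowest value met their highest sum. Their part in it was not tested. The rest of this list had values on both sides of 0 in both comparisons, with list medians of -0.48 and 0.31.

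The 10 co-receptors, antagonists and matrix binders held 3 genes that fell in aged controls and 2 that were higher in the libraries labelled knockout than in aged controls. Vasn, a membrane protein that traps TGF-beta, was at 53.09, 55.52 and 46.27 FPKM in the young controls, 12.88, 21.27 and 17.37 FPKM in aged controls, and 63.27, 89.22 and 59.39 FPKM in the libraries labelled knockout. It fell by 1.56 on the log2 scale (SE 0.25, adjusted p = 0.0172) and was higher by 1.98 in the second comparison (adjusted p = 0.00872), with no overlap on either side. Bambi, a decoy receptor without a kinase domain, fell from 14.5 ± 1.96 to 3.03 ± 0.481 FPKM with age, by a log2 difference of -1.94 (SE 0.33, adjusted p = 0.0197). It was at 13.1 ± 6.01 FPKM in the libraries labelled knockout, a log2 difference of 1.70 against aged controls (adjusted p = 0.0311). The biglycan gene Bgn, a matrix proteoglycan that binds TGF-beta, fell by 1.02 on the log2 scale in aged controls (adjusted p = 0.0450), from 413.5 ± 37.9 to 205.4 ± 37.9 FPKM. With median-ratio rescaling the difference of Bgn was -0.65 (adjusted p = 0.142), and that of Vasn was -1.20 (adjusted p = 0.0641).

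Inside the cell, 0 of the 9 signal transducers (Smads and their partners) passed in any comparison, with 1, 0 and 0 at an unadjusted p under 0.05. Their medians were -0.15, -0.04 and -0.13. Of the 11 signal inhibitors, 1 passed: Smad6, an inhibitory Smad best known for damping BMP signals, was at 13.3 ± 2.79 FPKM in aged controls and 43.4 ± 12.8 FPKM in the libraries labelled knockout, a log2 difference of 1.61 (adjusted p = 0.0236). Its levels were 10.56, 13.27 and 16.13 FPKM against 56.36, 30.79 and 42.96 FPKM, and young controls lay between them at 25.3 ± 3.63 FPKM.

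The 20 established targets of the pathway held 5 of the 9 pathway genes that passed in the second comparison. In aged against young controls 2 fell, Col1a1 (log2 difference -2.63) and Col1a2 (-1.94), the chains of type I collagen. In the libraries labelled knockout against aged controls 5 rose, and the median of the list was 1.09 against 0.07 over all tested genes. Acta2, smooth muscle actin, was at 19.89, 18.98 and 26.33 FPKM in the young controls, 12.68, 4.18 and 10.19 FPKM in aged controls and 62.96, 42.11 and 123.64 FPKM in the libraries labelled knockout, with a log2 difference of 2.92 in that comparison (adjusted p = 0.0190). Tagln, an actin-binding protein of contractile cells, was at 15.20, 19.12 and 25.87 FPKM, 8.63, 11.83 and 8.69 FPKM, and 61.10, 35.68 and 53.20 FPKM in the same order of groups (2.23, adjusted p = 0.00872). Both genes lay above every young control too in the libraries labelled knockout, where neither passed. Col1a1 (2.90) and Col1a2 (2.12) rose as well. The fifth, Id1, an inhibitor of bHLH factors that BMP signals also induce, rose by 1.75 (adjusted p = 0.0444) and was named after its value was seen. Of the rises in this comparison, those of Vasn and Tagln passed in 8 of the 9 fits that left out a library and failed without aged control replicate 1 (adjusted p = 0.0801 for each). That of Acta2 passed in 7 and failed without aged control replicates 1 and 2 (adjusted p = 0.0801 and 0.0641). Every other pathway call lost significance in 3 to 8 of these fits (Nrros passed the filter in 6 of them).

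**Figure D4:**
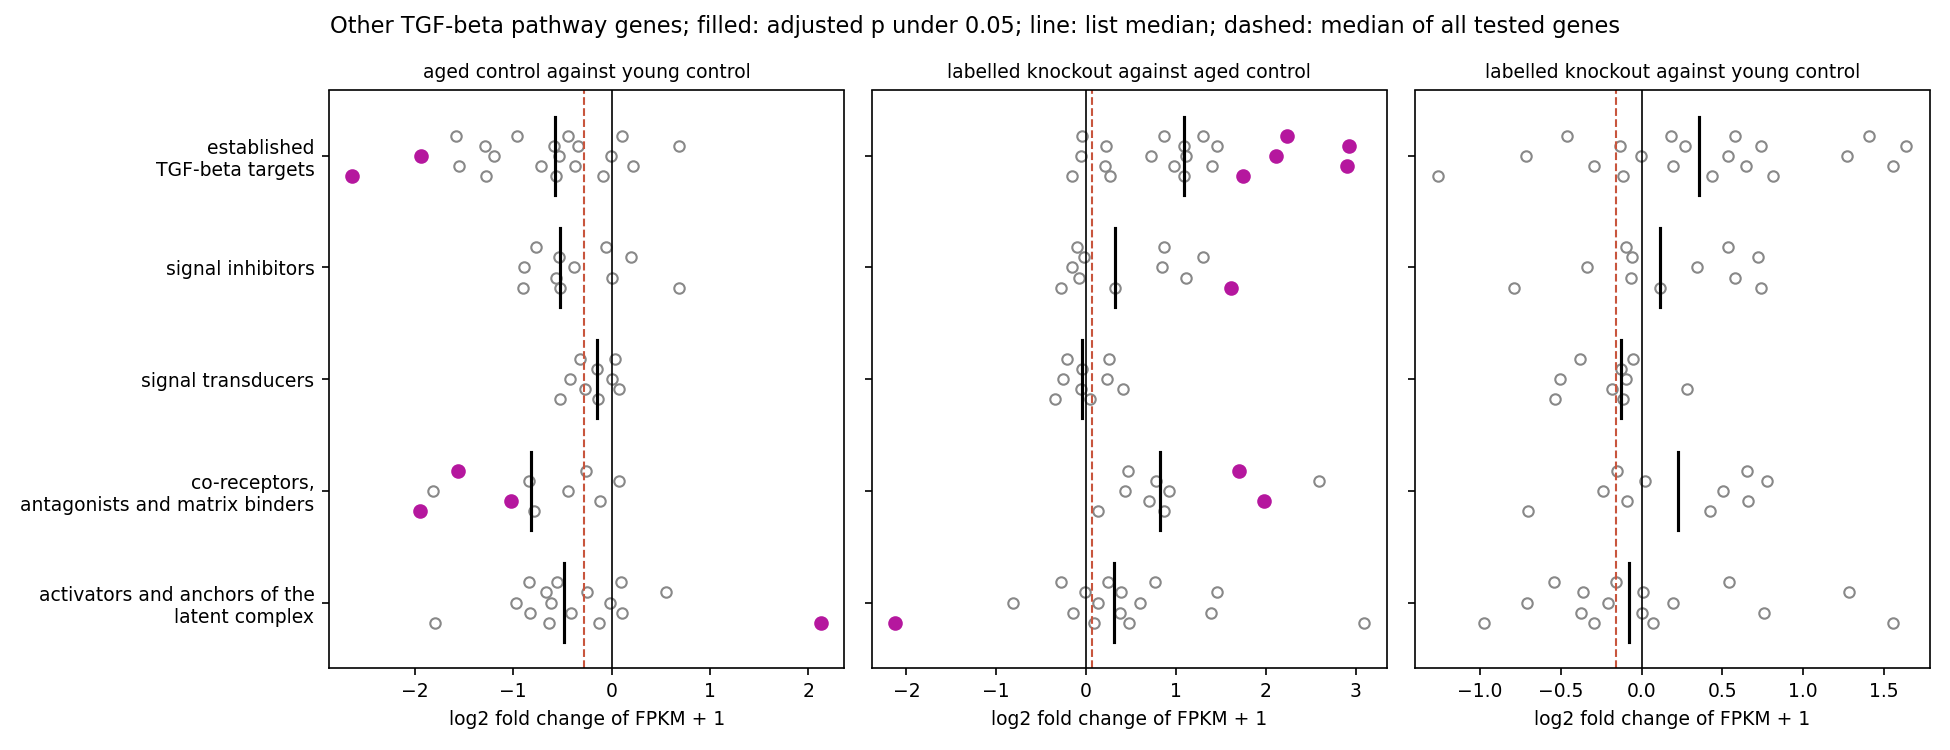
Log2 fold change of FPKM + 1 (x axis) of each tested pathway gene outside the 10, by list, in the 3 comparisons; filled points have an adjusted p under 0.05, solid lines mark the list medians and dashed lines the median of all tested genes. The x axes differ between panels. Filled target genes lie to the left in the first panel (2) and to the right in the second (5), and no point is filled in the third.

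Several of these genes are also made by osteoblasts, cartilage or mural cells. The marker lists share genes with the targets: Col1a1 is among the 8 osteoblast markers, and Acta2 and Tagln are among the 7 pericyte and smooth muscle markers. The 8 osteoblast markers summed to 5742.8 to 7788.5 FPKM in young controls and 1024.3 to 1884.2 FPKM in aged controls, and 4 of 8 fell. In the libraries labelled knockout they summed to 5062.4, 1770.2 and 8334.3 FPKM, and 4 of 8 were higher than in aged controls. In replicate 2 of that group, 5 of the 8 osteoblast markers (Bglap, Bglap2, Sp7, Col1a1 and Runx2) lay above every aged control. There 1 lay within the aged range and 2, Ibsp and Alpl, lay below it. Its sum lay within the aged range and hides these differences. The largest parts of that sum were Ibsp (719.69 FPKM) and Col1a1 (502.31 FPKM). The 10 chondrocyte markers summed to 121.96 to 308.43 FPKM in the young controls, 13.02 to 16.92 FPKM in aged controls and 161.15 to 3189.8 FPKM in the libraries labelled knockout, where 8 of 10 were higher than in aged controls. For the 7 pericyte and smooth muscle markers the sums were 97.75 to 139.28, 56.56 to 67.97 and 142.98 to 342.16 FPKM, and 3 of 7 were higher in the second comparison. Without the shared genes, 3 of 7 osteoblast markers (Bglap, Bglap2 and Sp7) fell in the first comparison and were higher in the second. Of the remaining 5 pericyte and smooth muscle markers 1, Mcam, was higher in the second, with sums of 35.25 to 49.09 FPKM in aged controls and 65.19 to 165.32 FPKM in the libraries labelled knockout. The 10 marrow stroma markers summed to 8519.7 to 9607 FPKM, 4287.6 to 6240.2 FPKM and 6602.3 to 9078 FPKM, so the sums were lowest in aged controls here too. Of these markers 1, Adipoq, fell in the first comparison and 0 passed in the second. In the second 9 differences were positive and 1 was negative. The mean of Lepr was 433 FPKM in aged controls and 345 FPKM in the libraries labelled knockout. Beside these counts of passing markers, 1.47% of all tested genes fell in the first comparison and 1.52% were higher in the second. No marker of these 4 lists was at 0 in all libraries of a group. Their part in the levels of Tgfb2, the latency proteins and the targets was not tested.

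**Figure D5:**
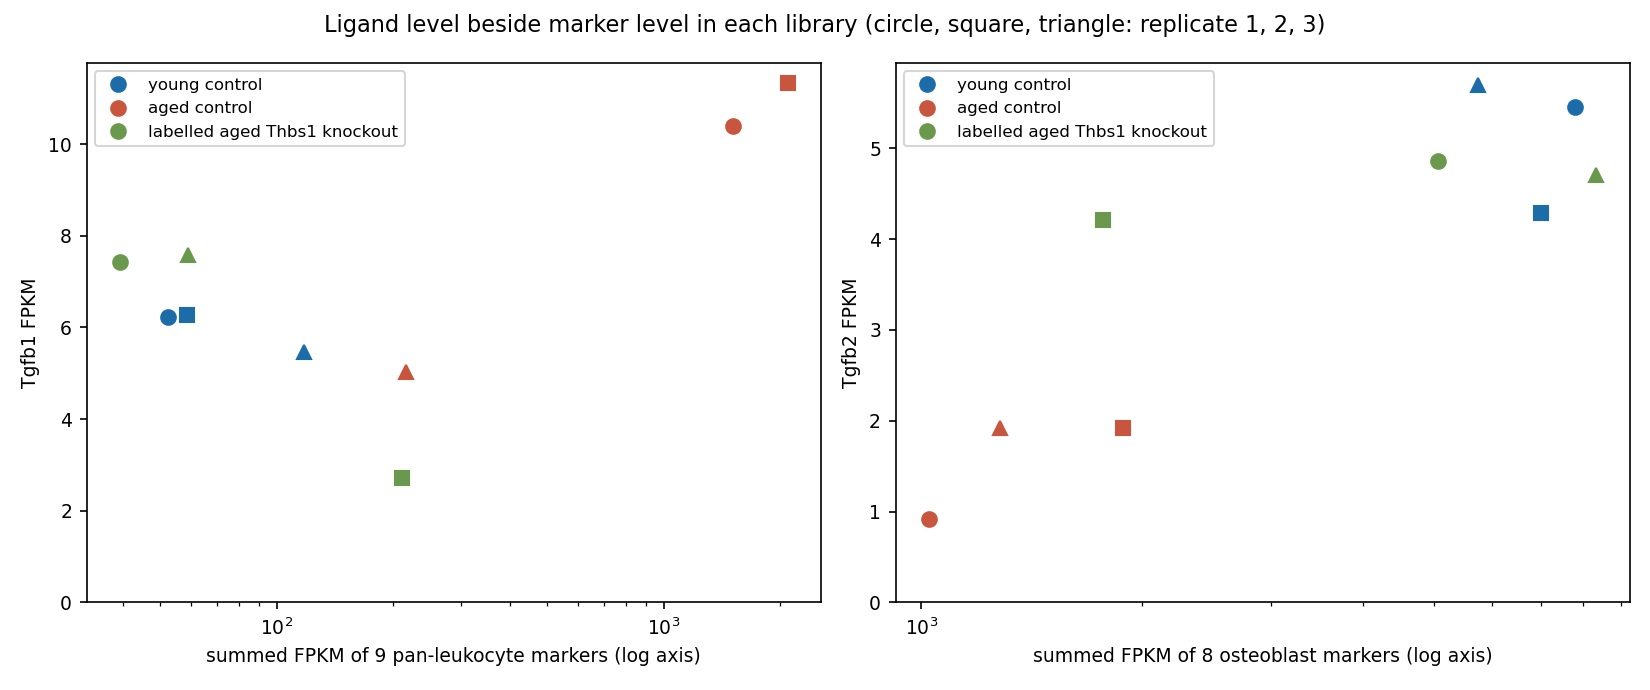
Left, Tgfb1 FPKM against the summed FPKM of 9 pan-leukocyte markers (log axis); right, Tgfb2 FPKM against the summed FPKM of 8 osteoblast markers (log axis), 1 point per library. Aged controls 1 and 2 stand high on both axes at left, and the aged controls stand low on both axes at right. The square of the libraries labelled knockout at right has a sum of 1770.2 FPKM, in which 5 of its 8 markers lie above every aged control and 2 below.

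The genes most like a member were sought over the 9 libraries among 9887 tested genes with a mean of at least 2 FPKM. The points share library, scaling and group, so the correlations are descriptions. For Tgfb2 they were Gadd45b (Pearson's r 0.992), Ctdspl (0.986) and Plpp1 (0.971). Gadd45b was at 191.3, 179.4 and 209.3 FPKM in the young controls, 51.94, 79.79 and 83.48 FPKM in aged controls, and 183, 178.5 and 197.9 FPKM in the libraries labelled knockout, low in the same 3 libraries as Tgfb2. Tgfb1 was most like Pank1 (0.989), Tgfbr1 like Azin1 (0.968) and Tgfbr2 like Ist1 (0.978). Among latency proteins, Ltbp1 was most like Lamc1 (0.976), Ltbp2 like Mpp2 (0.946) and Ltbp3 like Dag1 (0.986). Between members, the highest correlations were those of Ltbp1 with Ltbp3 (0.874), Tgfbr3 with Ltbp1 (0.851), Ltbp2 with Ltbp3 (0.844) and Tgfb2 with Ltbp2 (0.836). Tgfb1 and Tgfb2 had r of -0.470.

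The 10 genes lie on 8 chromosomes. Tgfb1 and Ltbp4 share chromosome 7, 1.6 Mb apart, and Tgfb3 (86056745 to 86079041) and Ltbp2 (84783212 to 84876532) share chromosome 12, 1.18 Mb apart. Tgfb1 and Ltbp4 had differences of opposite sign in the second comparison (-0.55 and 0.61), as did Tgfb3 and Ltbp2 (-0.19 and 0.85). In the first comparison the signs were alike in each pair (0.44 and 0.50, -0.48 and -0.72). In the third they were opposite (-0.11 and 1.12, -0.67 and 0.14). None of these differences passed. The Tgfb2 exons overlap a gene model on the opposite strand, Gm29491, over 124 bases.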

How the data were processed

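RNA of sorted marrow stromal cells was measured in 9 libraries (3 groups of 3, by genotype label; columns matched by title). The deposited values are FPKM with 2 decimals, per the file headers and values. FastQC 0.11.5, STAR, edgeR and GRCm38 (mm10) appear in the submitters' processing notes with no role for each; the sources used here do not give the annotation, counter or strand. FPKM shares 1 total per library, so abundant immunoglobulin transcripts lower all other values. Depth was estimated from the step between low FPKM values times gene length (GENCODE M21, 98.7% of symbols matched), sought between 10 and 40 M reads.

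Tests used limma 3.58.1 (R 4.3.3) with an intensity trend on log2(FPKM + 1), for genes with at least 1 FPKM in at least 3 libraries. The fit took group means over all 9 libraries together (6 residual degrees of freedom), with Benjamini-Hochberg adjustment over 11988 genes and a threshold of 0.05. Shares and ratios were compared by exact permutation tests. The script was tested on simulated data. Each library counted as 1 unit in the tests, and the sources used here do not say whether animals were pooled.

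The members and gene lists were chosen with earlier results of these data known. Named were all members, Thbs1, up to 4 passing genes per list and direction with the smallest p, and the 3 genes most like each member, of which the text prints some; the nearest genes of Tgfb3, Tgfbr3 and Ltbp4 are not reported here. Alternatives were median-ratio and quantile scaling, immunoglobulin genes left out, no filter or 5 FPKM as the minimum, 0.1 as pseudocount, only the compared groups, a replicate block and leaving out each library; median-ratio scaling without knockout-labelled replicate 2 was chosen after seeing the data. Proteins and the promoters of Tgfb3 and Tgfbr3 are not analysed here.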

Additional observations from a re-analysis of the deposited data

How the results depend on the processing

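The direction of Tgfb2 held in all 17 alternatives of both comparisons with aged controls, while its call held in 9 and 6 of them. The count of members passing, 1 in each of these comparisons, fell to 0 in both with no filter, a minimum of 5 FPKM (where Tgfb2 and Ltbp4 were not tested), immunoglobulin genes left out and the replicate block, to 0 in the first with median-ratio rescaling and to 0 in the second with only the compared groups fitted. It was 0 to 2 when a library was left out and 2 in the first with rescaling and without knockout-labelled replicate 2, the alternative chosen after seeing the data. Passing genes numbered 138 and 92 with no filter, 2128, 14 and 1 in the 3 comparisons with only the compared groups, 199 in the second with a minimum of 5 FPKM, 4 to 2729, 13 to 1895 and 2 to 37 with a library left out, and 1219, 1324 and 43 under the added alternative, against 484, 417 and 3. Pathway genes passing, 6, 9 and 0 as reported, numbered 1 and 3 with no filter, 3 in the first with quantile scaling or without immunoglobulin genes, 24 and 0 with only the compared groups, 0 to 25 and 0 to 21 with a library left out, and 1 in the third under the added alternative.

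No label says that equal replicate numbers pair the libraries. Same-numbered libraries had correlations of deviations from -0.288 to 0.302, and libraries with different numbers from -0.4085 to 0.3687. These ranges overlap, so they do not settle whether the numbers pair libraries. With the number as a replicate block, 120 and 64 genes and 1 and 3 pathway genes passed in the first 2 comparisons, and Tgfb2 had adjusted p of 0.0734 and 0.0941.

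Signs that turned were those of small differences. In aged against young controls, Tgfbr2 was at 0.22 with median-ratio rescaling, 0.077 with quantile scaling, 0.17 without immunoglobulin genes, 0.21 under the added alternative and -0.33 to 0.085 with a library left out; Id1 was at 0.013 with median-ratio rescaling, 0.0037 under the added alternative and -0.66 to 0.11 with a library left out, and Tgfbr1 at -0.045 to 0.26. In the second comparison the ranges with a library left out were -0.54 to 0.41 for Tgfb3 (0.10 under the added alternative), -0.43 to 0.12 for Tgfbr1 and -0.33 to 0.094 for Thbs1. In the third, median-ratio rescaling gave 0.034 for Tgfb1, 0.025 for Tgfb2, 0.13 for Tgfbr1 and 0.036 for Bgn. Quantile scaling gave 0.012 for Tgfb1 and 0.12 for Tgfbr1, which was at 0.054 without immunoglobulin genes. The added alternative gave 0.31 for Tgfb1, 0.28 for Tgfbr1, 0.021 for Ltbp1 and 0.18 for Bambi. A pseudocount of 0.1 gave -0.016 for Nrros. With a library left out the ranges were -0.32 to 0.29 for Tgfb1, -0.30 to 0.25 for Tgfbr1, -0.053 to 0.28 for Ltbp2, -0.16 to 0.25 for Ltbp3, -0.078 to 0.097 for Nrros, -0.53 to 0.15 for Bambi, -0.26 to 0.76 for Col1a1 and -0.24 to 0.60 for Col1a2. The cause was not tested.

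With 3 libraries a group, leaving one out leaves a pair whose spread is borrowed from the other groups. The FPKM scaling limits any statement on direction for log2 differences below the shift of the median gene.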
